A study of Mus musculus with 28 samples.

Results

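Fc gamma receptors are the surface proteins through which microglia bind the constant part of immunoglobulin G. Described here are the mouse genes of 4 such receptors, Fcgr1, Fcgr2b, Fcgr3 and Fcgr4, and Fcer1g, which encodes the signalling chain that the activating receptors share. The 5 genes were chosen by symbol as the members of this receptor system, by a rule that uses no measured value, though with earlier results of these data known. They are 5 of the 54427 entries kept from 2 deposited tables of gene counts, and each had 1 row in each table.

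An Fc gamma receptor on a macrophage or microglial cell binds antibody on a coated particle and can start its uptake. Fcgr1 (the high-affinity receptor), Fcgr3 and Fcgr4 are activating: they pair with the Fcer1g chain, whose tyrosine-based activation motif is phosphorylated by Src-family kinases and recruits the kinase Syk. Fcgr2b is the inhibitory receptor and carries its own tyrosine-based inhibition motif, which recruits the lipid phosphatase encoded by Inpp5d. The balance of activating and inhibitory receptors sets how strongly a cell answers immune complexes, and in the brain it bears on the uptake of aggregates bound by antibody.

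The 28 libraries were made from cultured primary microglia of mice of 2 genotypes, APOE3 (labelled WT) and APOE3S/S, homozygous for the Christchurch change in APOE3 (labelled Christchurch). Cells were untreated (labelled Control), given tau or given amyloid: 6, 6 and 3 libraries for APOE3 and 4, 6 and 3 for APOE3S/S. All groups thus carry an APOE3-based gene, and no group without it was analysed. The age of the mice, the form, dose and time of tau and amyloid, and whether libraries came from separate animals or cultures are not given in the labels, so the p-values measure only the spread between these libraries, which may be technical. RNA was counted from 3′ ends with a QuantSeq forward kit, so a count stands for a transcript end, and counts scaled by the library total (CPM) are compared here between libraries and not between genes. Library titles follow 2 naming forms whose meaning is not given: 17 titles, in all treatments, hold SAN (called the SAN title series here), and the other 11, untreated or with tau, are called the second title series. Untreated APOE3 libraries 1 to 3, tau libraries 4 to 6 of both genotypes, untreated APOE3S/S libraries 1 and 2 and all amyloid libraries are of the SAN title series, and the others are of the second.

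Library totals ran from 14.5 to 27.2 M counts (M for mega), and mitochondrial transcripts took 0.934 to 1.79% of them. No 2 libraries of a group were alike within counting noise: over 57 pairs, the mean squared difference was 4.22 to 147 times the counting variance. Pairs within a title series ran from 4.22 to 77.5 times, and pairs across the 2 series from 55.2 to 147 times. All 13 microglial markers had counts, and their sum was 7500 to 12419 CPM per library, although Tmem119 (0.910 to 5.83 CPM) and P2ry12 (9.38 to 30.8 CPM), which define microglia in the brain, were at low levels. Markers of border macrophages and monocytes summed to 2272 to 4829 CPM, with Siglec1 (525.9 to 2568 CPM), Pf4 (477 to 2815 CPM) and Mrc1 (348 to 891 CPM) leading and Lyve1 and Plac8 at or near 0. Markers of B, T and NK cells summed to at most 1.16 CPM in every library. Granulocyte and mast cell markers summed to 3.01 to 24.2 CPM, nearly all from S100a8 (2.30 to 21.5 CPM), with S100a9, Mpo and Cma1 at 0 counts. Marker sums for endothelial cells (35.5 to 89.8 CPM), astrocytes (31.6 to 113 CPM), oligodendrocytes (111 to 191 CPM) and neurons (0.89 to 4.44 CPM) were below those for microglia in every library, and the fibroblast sum (1025 to 4686 CPM) was nearly all Fn1. The astrocyte sum came mostly from Aldh1l1 (20.0 to 64.1 CPM) and Aldoc (6.11 to 36.6 CPM), with Gfap (0.181 to 8.30 CPM) and Aqp4 (0.104 to 8.40 CPM) low.

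Fcgr1 lies apart from the others, at chr3:96282909-96293969 on the minus strand (GRCm38, GENCODE M21). The other 4 genes are on chromosome 1: Fcgr2b at chr1:170958617-170976547 (minus), Fcgr4 at chr1:171018920-171029761 (plus), Fcgr3 at chr1:171051174-171064935 (minus) and Fcer1g at chr1:171229572-171234365 (minus). The 3 receptor genes there span 106.3 kb, and Fcer1g begins 164.6 kb beyond Fcgr3. An antisense gene, Gm38204, overlaps exons of Fcgr2b, and the strand setting of the counting is not given in the sources used here, so their reads cannot be told apart for certain. Over the last 500 bases of their transcripts, 3.06% of the 31-base words of Fcgr2b were also in Fcgr3, 0.52% of those of Fcgr3 were in Fcgr2b, and none of those of Fcgr1 or Fcer1g were in another gene. For Fcgr4 the shared words were 3.4% and lay in 28 genes outside the family.

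The 250 bases before the RefSeq start of Fcgr1, Fcgr4 and Fcgr2b are shown because these 3 genes carry the contrasts below: Fcgr1 was called with tau, Fcgr4 and Fcgr2b were not, and Fcgr2b and Fcgr4 differed between title series in opposite directions. All 5 genes matched RefSeq's promoters by symbol, with 2 promoters listed for Fcgr3. RefSeq's start is the GENCODE end given above for Fcgr1, but lies 476 bases inside the GENCODE gene for Fcgr2b, 6 for Fcgr4, 16 for Fcer1g, and 5532 and 5541 for Fcgr3. The sequences are RefSeq's (GRCm38.p6), printed 5′ to 3′ on the strand of the gene, with matches to 3 motifs in capitals. The motifs, searched on both strands, were the interferon-gamma-activated site GAS (TTCNNNGAA), the core of the interferon-stimulated response element ISRE (GAAA, any 2 bases, GAAA) and a core of sites bound by the myeloid factor PU.1 (GAGGAA, which reads TTCCTC where it lies on the opposite strand).
Fcgr1 chr3:96293970-96294219, minus strand: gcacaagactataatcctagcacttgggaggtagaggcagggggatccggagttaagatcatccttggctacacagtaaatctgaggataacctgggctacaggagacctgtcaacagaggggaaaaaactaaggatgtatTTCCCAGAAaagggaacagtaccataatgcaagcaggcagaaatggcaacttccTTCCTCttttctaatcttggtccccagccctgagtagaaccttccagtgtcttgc
Fcgr4 chr1:171018676-171018925, plus strand: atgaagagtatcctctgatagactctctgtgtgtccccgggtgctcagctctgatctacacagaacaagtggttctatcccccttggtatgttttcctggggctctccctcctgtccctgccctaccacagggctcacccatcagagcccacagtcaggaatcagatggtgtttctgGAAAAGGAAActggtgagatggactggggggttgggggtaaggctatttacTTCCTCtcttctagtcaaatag
Fcgr2b chr1:170976072-170976321, minus strand: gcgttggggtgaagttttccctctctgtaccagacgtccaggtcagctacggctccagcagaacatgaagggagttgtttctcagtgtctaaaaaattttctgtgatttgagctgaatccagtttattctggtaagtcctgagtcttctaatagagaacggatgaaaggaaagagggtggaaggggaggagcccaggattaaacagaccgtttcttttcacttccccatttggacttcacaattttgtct

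The GAS letters occurred at bases -109 to -101 before the RefSeq start of Fcgr1 and in no promoter of the other 4 genes, and in 7.02% of 32851 mouse promoters of this length. The ISRE core occurred at -73 to -64 before Fcgr4 and in no other member, against 2.98% of all promoters. The PU.1 core, present in 23.25% of all promoters, lay at -55 to -50 before Fcgr1, -22 to -17 before Fcgr4 and, in the 2 promoters of Fcgr3, at -6 to -1 and -15 to -10. Fcgr2b and Fcer1g held none of the 3 motifs in this window. A match is a description of letters, and binding was not measured.

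Several of these genes differed between the title series, so untreated APOE3 cells were compared between the series first. Fcgr2b, the inhibitory receptor, stood at 523, 581 and 697 CPM in the SAN libraries and at 1139, 1133 and 1046 CPM in those of the second series, a log2 difference of -0.96 ± 0.10 (SE; edgeR adjusted p = 1.5e-06). Fcgr4, an activating receptor, went the other way, with 172, 177 and 90.3 CPM in SAN against 56.9, 76.7 and 71.8 CPM (1.02 ± 0.25, adjusted p = 0.00863). Fcgr3 stood at 974, 936 and 675 CPM in SAN against 1034, 1199 and 1239 CPM (-0.50 ± 0.15, adjusted p = 0.0261). In these 3 genes, and in Fcgr1, the lowest library of one series lay above the highest of the other. The Fcgr3 call rested on single libraries: it was not made when untreated library 3 (-0.32, adjusted p = 0.133), 5 (adjusted p = 0.0753) or 6 (adjusted p = 0.0928) was left out. For Fcgr1 the difference was -0.75 ± 0.28 (adjusted p = 0.076), which passed by DESeq2 (adjusted p = 0.0365) and without the low-count filter (adjusted p = 2.8e-07), and for Fcer1g 0.09 ± 0.16 (adjusted p = 0.739). So 3 of 5 members passed in the main fit, where 16.4% of the 13905 genes tested passed. By CPM ranges 4 of 5 did not overlap between the series, against 31.8% of genes. Some marker sums did not overlap either. Border macrophages and monocytes summed to 2272 to 2872 CPM in SAN and 3253 to 3536 CPM in the second series. Fibroblasts summed to 1025 to 1852 and 3480 to 4540 CPM, and astrocytes to 45.2 to 61.5 and 31.6 to 39.2 CPM. Granulocytes and mast cells summed to 7.84 to 15.4 and 3.32 to 4.4 CPM. The neuron sum was higher in SAN and that of B, T and NK cells lower, both at low levels. By DESeq2, and also without the low-count filter, 4 of 5 members passed. The share of all genes that passed under those settings is not given here, and the 16.4% does not stand for it. That count of members therefore cannot be judged against other genes. Without the filter the Fcgr1 difference was -0.74 ± 0.13, against -0.75 ± 0.28 in the main fit. Its smaller adjusted p thus came with a smaller SE and not with a larger difference.

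**Figure D1:**
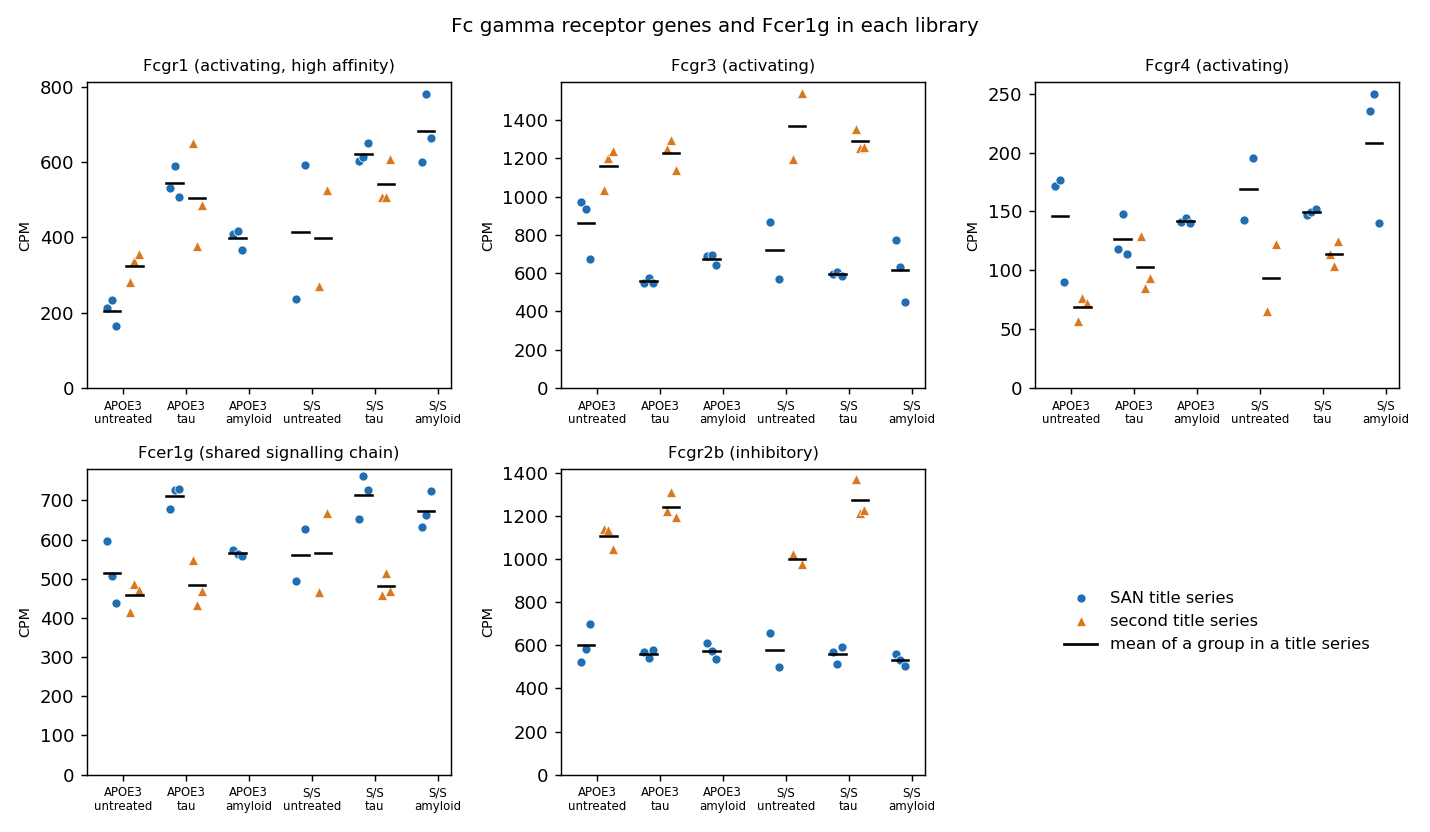
CPM of each gene (y axis, linear, from 0) in each library (points) by genotype and treatment (x axis), with SAN libraries as circles, the second title series as triangles and bars at the mean of a group within a series. Fcgr2b and Fcgr3 are lower in SAN libraries than in the second series in each of the 4 groups that both series hold, and Fcgr1 is higher with tau than in untreated APOE3 cells in both series.

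Fcgr1, the high-affinity activating receptor, rose with tau in APOE3 microglia, and it was the only member called in that comparison. In SAN libraries Fcgr1 stood at 213, 234 and 164 CPM untreated and at 532, 591 and 508 CPM with tau. In the second series it stood at 283, 338 and 355 CPM untreated and at 652, 377 and 487 CPM with tau. Every tau library was thus above every untreated library, with the closest pair, 377 and 355 CPM, in the second series. The change was 1.04 ± 0.22 on the log2 scale, 2.05-fold (95% interval of the log2 change 0.57 to 1.497; adjusted p = 0.00267), from 265 ± 74.2 CPM (SD, n = 6) to 525 ± 94.0 CPM (SD, n = 6). It was the 631st smallest of 13905 p-values, and 14.8% of genes passed; 4.27% of genes did not overlap between the 6 and 6 libraries, as 1 of 5 members did not. Fcgr1 kept its call without any 1 of the 12 libraries (0.91 to 1.14). Within the series the rise was 1.4992 ± 0.28 in SAN (adjusted p = 0.00239) and 0.65 ± 0.24 in the second, where it did not pass alone (adjusted p = 0.215); the difference between these responses was 0.83 ± 0.40 (adjusted p = 0.263). The border macrophage and monocyte marker sum moved the same way, from 2272 to 2872 CPM untreated to 3450 to 3923 CPM with tau in SAN, and from 3253 to 3536 CPM to 4069 to 4366 CPM in the second series. The astrocyte sum did so too, from 45.2 to 61.5 CPM to 72.6 to 87.0 CPM in SAN and from 31.6 to 39.2 CPM to 42.4 to 51.4 CPM in the second series. In SAN alone, the granulocyte and mast cell sum was higher with tau without overlap (7.84 to 15.4 CPM untreated, 16.2 to 24.2 CPM with tau) and the neuron sum was lower (2.24 to 3.62 CPM against 0.89 to 1.83 CPM). Their part in the Fcgr1 result was not tested, and in bulk RNA fewer cells of a type and less RNA per cell cannot be told apart. The border macrophage and monocyte sum is led by Siglec1, Pf4 and Mrc1, and the astrocyte sum by Aldh1l1 and Aldoc. Single markers are not given by treatment here, so a moved sum does not show a change in the number of cells of a type.

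The other activating receptors were not called with tau in APOE3 cells over both title series. Fcgr3, which binds immune complexes with low affinity, went from 974, 936 and 675 CPM to 548, 574 and 549 CPM in SAN, but stood at 1034, 1199 and 1239 CPM untreated and 1249, 1293 and 1140.4 CPM with tau in the second series. The fall was thus seen in SAN (-0.55 ± 0.16, adjusted p = 0.0361 in that series alone) and not in the second (0.10 ± 0.12, adjusted p = 0.824), and over both series it was -0.25 ± 0.13 (adjusted p = 0.22). The difference of the Fcgr3 response between the series was -0.66 ± 0.21 (adjusted p = 0.0714), and it passed without untreated library 3 (-0.84 ± 0.19, adjusted p = 0.0125). Fcgr4 stood at 172, 177 and 90.3 CPM untreated and 118, 148 and 114 CPM with tau in SAN, and at 56.9, 76.7 and 71.8 CPM against 129, 84.8 and 93.6 CPM in the second series. Its pooled change was 0.22 ± 0.19 (95% interval -0.18 to 0.61; adjusted p = 0.514), with -0.13 ± 0.23 in SAN and 0.60 ± 0.22 in the second series (adjusted p = 0.771 and 0.23).

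Fcer1g, the shared chain, was higher with tau in the SAN libraries. It stood at 596, 507 and 439 CPM untreated and at 678, 728 and 729 CPM with tau in SAN, and at 414, 487 and 472 CPM against 548, 433 and 468 CPM in the second series. All SAN tau libraries were above all SAN untreated libraries (0.55 ± 0.16, adjusted p = 0.0254), while the second series overlapped (0.09 ± 0.14, adjusted p = 0.868). Over both the change was 0.31 ± 0.13 (adjusted p = 0.126). Fcgr2b stood at 567, 541 and 577 CPM with tau in SAN and 1222, 1310.2 and 1192 CPM in the second series, a pooled change of 0.08 ± 0.08 with a 95% interval of -0.08 to 0.24 (adjusted p = 0.558). In SAN alone 3 of 5 members passed (Fcgr1 and Fcer1g higher, Fcgr3 lower), where 19% of genes passed, and in the second series 0 of 5, where 2.55% passed. By CPM ranges 3 of 5 members did not overlap in SAN (38.4% of genes) and 3 of 5 in the second series (Fcgr1, Fcgr2b and Fcgr4, all higher; 20.9% of genes). Across the response to tau, 5.62% of genes differed between the series in APOE3 cells, and 0 of 5 members did by edgeR (1 by DESeq2). Under an unadjusted edgeR p of 0.05 were 2 members and 2653 of 13905 genes.

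In APOE3S/S microglia no member passed with tau. Fcgr1 stood at 237 and 592 CPM untreated and 604, 613 and 652 CPM with tau in SAN, and at 269.7 and 525 CPM against 508, 507 and 608 CPM in the second series. In each series 1 untreated APOE3S/S library was near the untreated APOE3 level and the other, library 2 in SAN and library 4 in the second series, was within or next to the range of the tau libraries. The change was 0.52 ± 0.25 (95% interval 0.003 to 1.03; adjusted p = 0.254), 0.82 ± 0.26 without untreated library 2 (adjusted p = 0.0646), 0.68 ± 0.27 without library 4 (adjusted p = 0.183), and 0.31 and 0.35 without library 1 or 3. Fcgr2b changed by 0.15 ± 0.09, Fcgr3 by -0.17 ± 0.14, Fcgr4 by 0.05 ± 0.21 and Fcer1g by 0.05 ± 0.15, with adjusted p-values of 0.328 to 0.929. By edgeR 0 of 5 members passed (0 by DESeq2) where 3.28% of genes passed, and 0 of 5 did not overlap, against 2.26% of genes. Under an unadjusted edgeR p of 0.05 were 1 member and 2714 of 13905 genes. Alone, the SAN series called 4.63% of genes and the second 2.26%, and neither called a member.

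The response to tau was then compared between genotypes. For Fcgr1 the APOE3S/S response minus the APOE3 response was -0.52 ± 0.33 (95% interval -1.20 to 0.16). Without untreated APOE3S/S library 2 or 4 it was -0.23 ± 0.31 and -0.34 ± 0.34. Without library 1 or 3 it was -0.71 ± 0.31 and -0.69 ± 0.32. Over the 22 omissions of a library it ran from -0.71 to -0.23, and no gene was called in any of them. In the fit of all libraries, the intervals for Fcer1g (-0.68 to 0.15), Fcgr2b (-0.16 to 0.31), Fcgr3 (-0.32 to 0.48) and Fcgr4 (-0.75 to 0.42) also held 0. No gene passed by edgeR (0%; 284 genes at an unadjusted p under 0.05, and 0 passed by DESeq2), and no member was under 0.05 unadjusted. The call of Fcgr1 in APOE3 and not in APOE3S/S cells is therefore not a difference that this test showed, nor do the intervals show that the responses are alike. Across the title series, 0.949% of genes differed in their response to tau in APOE3S/S cells and 0 of 5 members did (0 by DESeq2). Under an unadjusted edgeR p of 0.05 were 2416 of 13905 genes and 1 member. That member was Fcer1g (0.69 ± 0.25, adjusted p = 0.173), which passed without untreated APOE3S/S library 3 (0.96 ± 0.25, adjusted p = 0.0225).

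**Figure D2:**
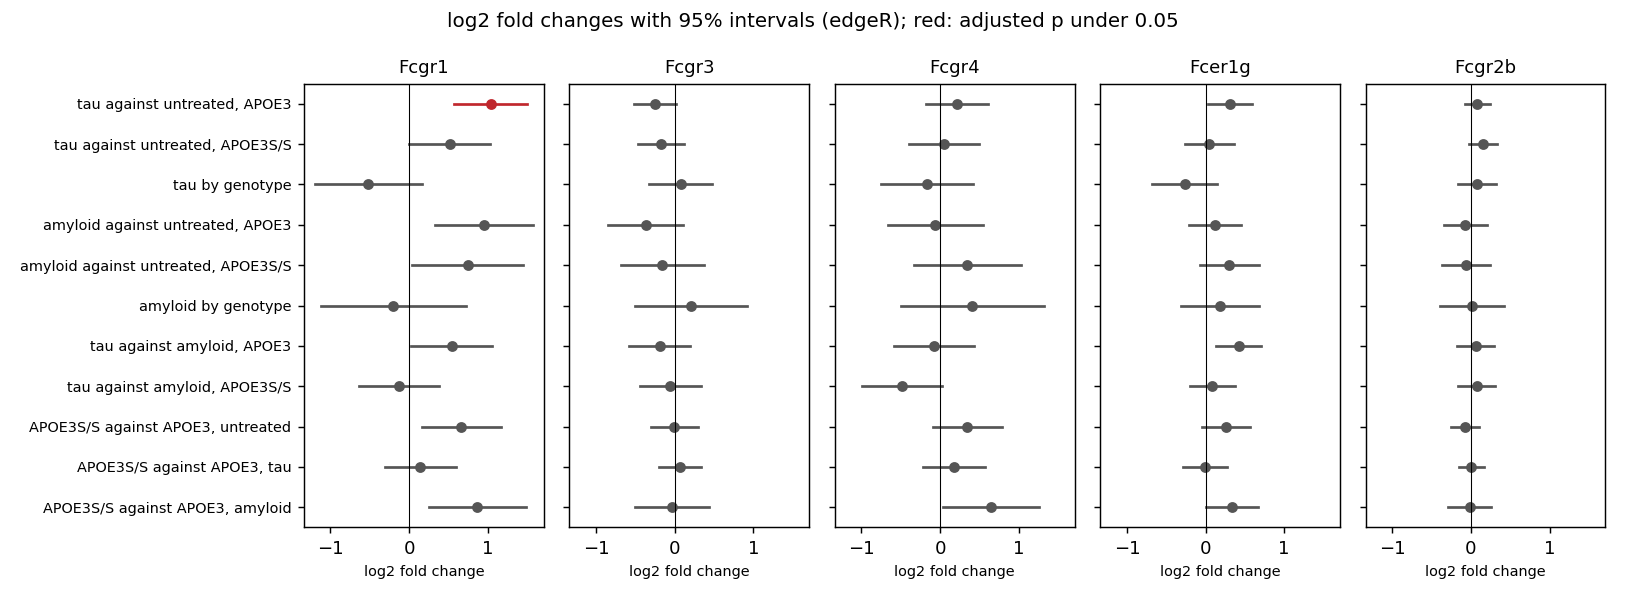
log2 fold changes (x axis) of each gene in 11 comparisons (y axis), with 95% intervals derived from the edgeR F tests. Red marks an adjusted p under 0.05. In the plot of log2 fold changes the only red point is Fcgr1 with tau in APOE3 cells, and the intervals of Fcgr2b are the narrowest and all include 0.

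Between genotypes without treatment, Fcgr1 was 406 ± 179 CPM (SD, n = 4) in APOE3S/S cells and 265 ± 74.2 CPM (SD, n = 6) in APOE3 cells, a difference of 0.66 ± 0.24 (95% interval 0.16 to 1.16; adjusted p = 0.642). It was 0.38 ± 0.24 and 0.48 ± 0.26 without APOE3S/S library 2 or 4, the high ones, and 0.85 ± 0.23 and 0.84 ± 0.25 without library 1 or 3. Fcgr4 differed by 0.35 ± 0.21, Fcer1g by 0.26 ± 0.15, Fcgr2b by -0.07 ± 0.08 and Fcgr3 by -0.01 ± 0.14, with adjusted p-values of 0.657 to 0.994. By edgeR 0 of 5 members passed (0 by DESeq2), where 0.00719% of genes, 1 gene, passed. Under an unadjusted edgeR p of 0.05 were 1 member and 1077 of 13905 genes. With tau, Fcgr1 was 582 ± 59.97 CPM in APOE3S/S and 525 ± 94.0 CPM in APOE3 cells (SD, n = 6 each), a difference of 0.14 ± 0.22 (95% interval -0.31 to 0.60). Fcgr4 differed by 0.18 ± 0.19, Fcgr3 by 0.07 ± 0.13, Fcgr2b by 0.003 ± 0.076 and Fcer1g by -0.01 ± 0.13. No member was under 0.05 unadjusted, against 300 of 13905 genes. None passed by edgeR or DESeq2, and 0.0144% of genes passed by edgeR.

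Amyloid was tested in SAN libraries only, against untreated libraries that the tau comparisons also use. In APOE3 cells Fcgr1 was 409.7, 417 and 365 CPM with amyloid, above the 213, 234 and 164 CPM of the untreated SAN libraries. The difference was 0.95 ± 0.28 (1.93-fold; 95% interval 0.33 to 1.57), did not pass by edgeR (adjusted p = 0.229) and passed by DESeq2. Fcgr3 stood at 689, 693 and 642 CPM (-0.37 ± 0.22), Fcgr4 at 141, 145 and 140.2 CPM (-0.06 ± 0.28), Fcer1g at 574, 563 and 559.5 CPM (0.12 ± 0.15) and Fcgr2b at 612, 571 and 534 CPM (-0.07 ± 0.12). These 4 overlapped with the untreated libraries, and their adjusted p-values were 0.484 to 0.935. No gene passed by edgeR (0%; 1821 at an unadjusted p under 0.05, of them 1 member; 289 genes by DESeq2, 1 of them a member), and 1 of 5 members did not overlap, against 24.3% of genes. Some marker sums moved with Fcgr1 here without overlap: border macrophages and monocytes from 2272 to 2872 CPM untreated to 3645 to 3944 CPM with amyloid, and astrocytes from 45.2 to 61.5 CPM to 72.2 to 113 CPM. The sums for microglia (7521 to 8197 CPM against 8396 to 8882 CPM) and fibroblasts (1025 to 1852 CPM against 1943 to 2170 CPM) did as well, and the part of these in the Fcgr1 result was not tested. Here too single markers are not given by treatment.

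APOE3S/S cells with amyloid had the highest mean Fcgr1 of any group, at 602, 782 and 663 CPM. Against the untreated APOE3S/S libraries of the SAN series, at 237 and 592 CPM, the difference was 0.75 ± 0.32 (95% interval 0.04 to 1.45; adjusted p = 0.582). The result turned on untreated library 2: without it the difference was 1.62 ± 0.24 and passed (adjusted p = 0.00495), and without library 1 it was 0.21 ± 0.22, the remaining untreated library being assumed to vary like the other groups. Fcgr4 changed by 0.35 ± 0.31, Fcer1g by 0.30 ± 0.17, Fcgr3 by -0.16 ± 0.24 and Fcgr2b by -0.06 ± 0.14. No gene passed by edgeR (0%; 1181 at an unadjusted p under 0.05, of them 1 member; 2 genes and no member by DESeq2). The response to amyloid differed between genotypes by -0.20 ± 0.42 for Fcgr1 (95% interval -1.13 to 0.72) and by 0.41 ± 0.41 for Fcgr4. For Fcgr1 the difference became 0.68 without untreated APOE3S/S library 2 and -0.73 without library 1. With all libraries no gene passed the test of amyloid by genotype (0%; 514 at an unadjusted p under 0.05, no member among them; 0 by DESeq2).

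With amyloid, 3 members were higher in APOE3S/S than in APOE3 cells without passing the test. Fcgr1 was 682 ± 91.3 against 397 ± 27.8 CPM (SD, n = 3 each), a difference of 0.87 ± 0.28 (95% interval 0.25 to 1.49; adjusted p = 0.388). Fcgr4 stood at 236, 250.2 and 140.2 CPM against 141, 145 and 140.2 CPM (0.65 ± 0.28, adjusted p = 0.4), and Fcer1g at 632, 662 and 725 CPM against 574, 563 and 559.5 CPM (0.34 ± 0.15, adjusted p = 0.405). Fcgr1 and Fcer1g did not overlap between the genotypes, 2 of 5 members against 30.4% of genes, while Fcgr4 of APOE3S/S library 3 lay at the APOE3 level. The oligodendrocyte sum (111 to 119 CPM in APOE3S/S, 135 to 145 CPM in APOE3) and the fibroblast sum were lower in APOE3S/S without overlap. The part of these sums was not tested. Fcgr2b (-0.02 ± 0.12) and Fcgr3 (-0.03 ± 0.22) were near 0. No gene passed by edgeR (0%; 1673 at an unadjusted p under 0.05, of them 3 members; 59 genes and no member by DESeq2).

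Tau and amyloid were compared directly within the SAN series. In APOE3 cells Fcer1g was higher with tau by 0.42 ± 0.13 (adjusted p = 0.068) and Fcgr1 by 0.54 ± 0.24 (adjusted p = 0.188), and Fcgr3 differed by -0.19 ± 0.18. In these 3 of 5 members the tau and amyloid libraries did not overlap, against 43% of genes. Some marker sums did not overlap either. With tau the sums were lower for microglia (7500 to 7762 against 8396 to 8882 CPM) and fibroblasts (1432 to 1590 against 1943 to 2170 CPM). Endothelial and oligodendrocyte sums were also lower. The granulocyte and mast cell sum was higher (16.2 to 24.2 against 10.7 to 13.9 CPM). The part of these in the member differences was not tested. Fcgr4 differed by -0.08 ± 0.24 and Fcgr2b by 0.06 ± 0.11. No member passed by edgeR (1 by DESeq2), where 7.33% of 14131 genes did. Under an unadjusted edgeR p of 0.05 were 2 members and 3314 genes. In APOE3S/S cells the order of Fcgr1 was turned, with -0.13 ± 0.24 for tau minus amyloid, and Fcgr4 differed by -0.48 ± 0.24 (95% interval -0.99 to 0.03; adjusted p = 0.562). There 0.149% of genes passed and 0 of 5 members (0 by DESeq2). Under an unadjusted edgeR p of 0.05 were 0 members and 1328 genes. These comparisons share tau or amyloid libraries with those above.

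Ordered by mean within the SAN series, Fcgr1 ran from untreated APOE3 (204 ± 36.2 CPM, n = 3) through amyloid APOE3 (397 ± 27.8), untreated APOE3S/S (415 ± 251, n = 2), tau APOE3 (544 ± 42.7) and tau APOE3S/S (623 ± 25.2) to amyloid APOE3S/S (682 ± 91.3 CPM, all SD). Untreated APOE3S/S overlapped with both of its neighbours, as did the last 2 groups with each other, while the 2 tau groups did not overlap. Between those tau groups 2 of 5 members, Fcgr1 and Fcgr3, did not overlap, against 11.2% of genes. The astrocyte sum did not overlap there either (72.6 to 87.0 CPM in APOE3, 92.4 to 99.2 CPM in APOE3S/S). Endothelial and neuron sums were also higher in APOE3S/S without overlap, and the part of these sums was not tested. In the second series the order was untreated APOE3 (325 ± 37.8), untreated APOE3S/S (397 ± 181, n = 2), tau APOE3 (505 ± 138) and tau APOE3S/S (541 ± 57.8 CPM), with each neighbouring pair overlapping. Fcer1g in SAN ran from untreated APOE3 (514 ± 79.0 CPM) through untreated APOE3S/S (561 ± 94.1), amyloid APOE3 (566 ± 7.88), amyloid APOE3S/S (673 ± 47.5) and tau APOE3 (711 ± 29.3) to tau APOE3S/S (714 ± 56.0), and of these steps only that between the 2 amyloid groups, where 30.4% of genes did not overlap, had none. In the second series all 4 groups had means of Fcer1g between 458 and 566 CPM.

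Fcgr3 in SAN was highest in untreated APOE3 cells (862 ± 163 CPM) and lowest with tau in APOE3 cells (557 ± 14.9), with untreated APOE3S/S (719 ± 212), amyloid APOE3 (675 ± 28.4), amyloid APOE3S/S (619 ± 161) and tau APOE3S/S (595 ± 10.1) between them. The tau groups had the smallest spreads, at 548 to 574 CPM in APOE3 and 584 to 603 CPM in APOE3S/S cells, and did not overlap (11.2% of genes, as above), while all other neighbours in this order did. In the second series Fcgr3 was 1157 ± 109 (untreated APOE3), 1228 ± 78.6 (tau APOE3), 1288 ± 56.8 (tau APOE3S/S) and 1369 ± 246 CPM (untreated APOE3S/S), with untreated APOE3S/S library 4 the highest of all 28 at 1542 CPM. Fcgr4 in SAN had means of 126 CPM (tau APOE3) to 169 CPM (untreated APOE3S/S) in 5 groups and 209 ± 59.8 CPM in amyloid APOE3S/S. In the second series its means ran from 68.5 ± 10.3 CPM in untreated APOE3 to 114 ± 10.7 CPM in tau APOE3S/S, with untreated APOE3S/S (93.7 ± 40.1, n = 2) and tau APOE3 (102 ± 23.3) between them. Fcgr2b in SAN stayed between group means of 532 and 600.2 CPM, and in the second series between 999.98 CPM in untreated APOE3S/S and 1271 CPM in tau APOE3S/S.

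The counts of an activating receptor per count of Fcgr2b in the same library were compared between libraries as a description, without a test. Fcgr1 per Fcgr2b was 0.41, 0.40 and 0.24 in untreated APOE3 cells of SAN and 0.94, 1.09 and 0.88 with tau. In the second series it was 0.25, 0.30 and 0.34 untreated and 0.53, 0.29 and 0.41 with tau, so the ranges were separate in SAN and overlapped in the second series. With amyloid it was 0.67, 0.73 and 0.68 in APOE3 and 1.07, 1.47 and 1.32 in APOE3S/S cells. Untreated APOE3S/S library 2, at 1.19, was as high as the tau libraries of that genotype (1.06, 1.19 and 1.10). Fcgr3 per Fcgr2b moved the other way in APOE3 cells of SAN, from 1.86, 1.61 and 0.97 untreated to 0.97, 1.06 and 0.95 with tau, with untreated library 3 already at the tau level. The 3 activating receptors together per Fcgr2b were thus 2.08 ± 0.66 untreated and 2.19 ± 0.21 with tau in these SAN libraries, and 1.41 ± 0.19 and 1.48 ± 0.16 in the second series (SD, n = 3 each). In amyloid APOE3S/S libraries the sum was 2.83 ± 0.32, against 2.12 ± 0.09 in amyloid APOE3 (SD, n = 3 each).

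**Figure D3:**
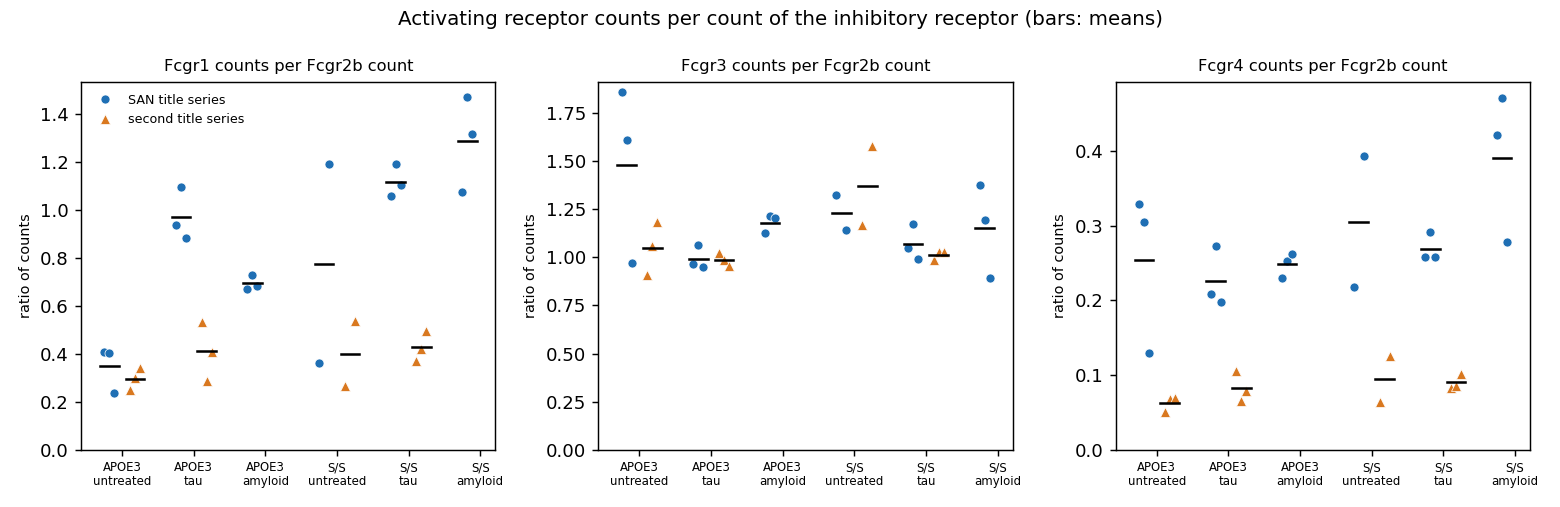
Counts of Fcgr1, Fcgr3 and Fcgr4 per count of Fcgr2b (y axes, linear, from 0) in each library by genotype and treatment (x axis), with SAN as circles, the second series as triangles and bars at means. The Fcgr1 ratio of APOE3 cells is higher with tau in SAN without overlap, while that of Fcgr3 is 0.95 to 1.06 with tau against 0.97 to 1.86 untreated.

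Over the 28 libraries, with the mean of each title series subtracted from log2 CPM, Fcgr1 correlated with Fcer1g (r = 0.80) and Fcgr4 (r = 0.62) and not with Fcgr2b (r = -0.04) or Fcgr3 (r = -0.36). These are descriptions: the libraries share treatments, genotypes and depth. After the mean of each group within a series was also subtracted, the values were 0.82, 0.77, -0.46 and 0.10. By r with Fcgr1, Fcer1g and Fcgr4 ranked 543rd and 1264th of 9748 genes before this step and 233rd and 361st after it. Many genes thus varied with Fcgr1 at least as closely. The untreated APOE3S/S libraries, 2 per series, were far apart in Fcgr1 (237 and 592, 269.7 and 525 CPM). With 2 libraries the deviations mirror each other, and the part of these 4 libraries in the r values was not tested. The genes most like each member, among 9748 with a mean of at least 5 CPM, were then listed. For Fcgr1 they were Ube2l6 (r = 0.989), an enzyme of ISG15 conjugation, Igtp (0.985), an immunity-related GTPase, and Ifi204 (0.985), all 3 known as interferon-induced. For Fcer1g they were Vamp8 (0.970), Psma5 (0.962) and Ctsz (0.956), for Fcgr4 Evi2a (0.905), Mgat1 (0.878) and Itm2b (0.845), and for Fcgr3 Uap1 (0.877), Eepd1 (0.867) and Hist1h1c (0.865). For Fcgr2b they were Sh3bgrl2 (0.765), Rassf2 (0.758) and Fosl2 (0.736). These lists hold for this setting: with no subtraction the highest r of Fcgr2b was 0.968, with Stab1, and its r with Sh3bgrl2 was -0.21. With no subtraction Fcgr3 had an r of 0.174 with Uap1 and -0.343 with Hist1h1c, and Fcgr4 of 0.583 with Evi2a.

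**Figure D4:**
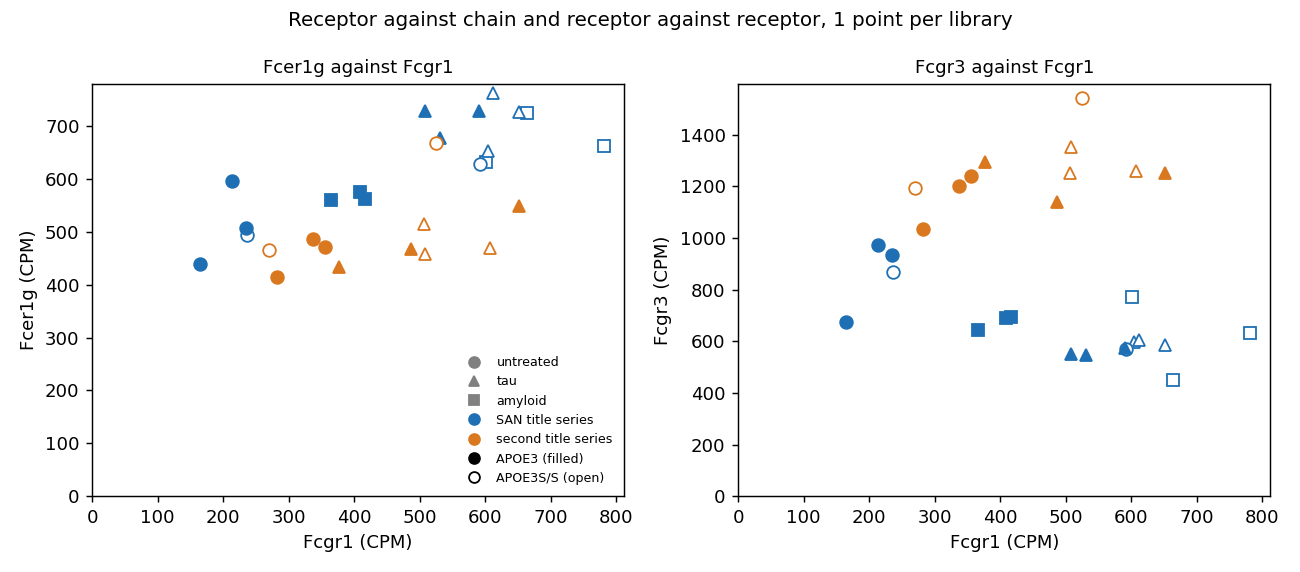
Fcer1g (left y axis) and Fcgr3 (right y axis) against Fcgr1 (x axes), all in CPM on linear axes from 0, with 1 point per library; colour marks the title series, shape the treatment and filling the genotype. Fcer1g is higher where Fcgr1 is higher within the SAN series, and untreated APOE3S/S library 2 (open circle at 592 CPM of Fcgr1) lies among the tau and amyloid libraries.

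The genes around these receptors were described from lists written from general knowledge, with values as log2 changes with tau and the standard error. In the genotype comparisons, amyloid against untreated, and the tests of tau or amyloid by genotype no gene of these lists passed. In APOE3 cells with tau, where 14.8% of all genes tested passed (1248 higher and 816 lower of 13905), 11 of 36 kinases and adaptors downstream of the activating receptors rose and 4 fell (median 0.14, against -0.02 over all genes). Src, a kinase that can phosphorylate the activation motif, rose by 1.37 ± 0.24 (adjusted p = 0.000595), while Tec (-0.59 ± 0.10) and Blnk (-0.52 ± 0.09), a Tec-family kinase and an adaptor, fell. Of 6 NADPH oxidase genes, which make the respiratory burst, 3 rose and none fell: Ncf1 (0.63 ± 0.09), Cybb (0.72 ± 0.18) and Ncf4 (0.52 ± 0.14). Ncf1 passed by edgeR in each title series alone. Cybb rose by 1.32 ± 0.19 in SAN and by 0.19 ± 0.15 in the second series, where it did not pass (adjusted p = 0.691). Ncf4 rose by 0.85 ± 0.17 and 0.23 ± 0.10, the latter not passing (adjusted p = 0.32). Of 23 genes of inhibitory signalling 5 rose and 2 fell, among them Siglece (2.48 ± 0.34), an inhibitory sialic acid receptor, Cd300lf (0.42 ± 0.08) and Ubash3b (-0.42 ± 0.09). Of 34 genes of the phagocytic cup and actin 3 rose and 4 fell, to be read against the 14.8% of all genes, led by Marcksl1 (1.90 ± 0.32), Myo1e (-0.81 ± 0.17) and Elmo1 (-0.38 ± 0.09). Medians of these 3 lists were 0.40, 0.11 and 0.08.

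Another list held activation-motif adaptors and other receptors that use Fcer1g. Of its 14 tested genes 6 rose and 1 fell with tau in APOE3 cells (median 0.16), with the C-type lectin receptors Clec4a1 (2.23 ± 0.32) and Clec4n (1.24 ± 0.18) among those that rose. Gp6 was also called (adjusted p = 0.000133), but on 0 or 1 count in each untreated library (0 in 4 of 6) and 2 to 44 counts with tau. Of 15 transcription factors known at or upstream of Fc receptor genes 7 rose and 2 fell (median 0.29), with Stat3 (0.45 ± 0.08) higher and Irf8 (-0.46 ± 0.08) lower. A list of other immunoglobulin receptors also held Fc receptor-like genes, and 4 of its genes were tested. Of these, Trim21, the cytosolic Fc receptor, rose by 0.83 ± 0.16. Fcrl1, an Fc receptor-like gene, fell by 0.88 on the log2 scale (SE 0.23). All 20 pathway genes that the naming rule chose in this comparison kept their calls without any 1 library. In the SAN series alone 20 of 20 passed, and in the second alone 6 of 19, all 19 in the same direction. Without a term for the title series 7 of the 20 lost their calls (Blnk, Cd300lf, Cybb, Fcrl1, Myo1e, Tec and Ubash3b; adjusted p = 0.0542 to 0.332).

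In APOE3S/S cells, where 3.28% of all genes passed with tau (297 higher and 159 lower), 1 of 36 kinases and adaptors rose and 4 fell, 2 of 23 inhibitory genes rose, and 1 of 6 genes of the NADPH oxidase, Ncf1 (0.38 ± 0.10), rose with tau. Medians of these 3 lists were 0.11, 0.10 and 0.25, against -0.01 over all genes, and the test of tau by genotype above called none of these genes. Of the 34 phagocytic genes 1 was higher, Actr2 (0.26 ± 0.07), and 1 lower, Elmo2 (-0.30 ± 0.08). Src (1.24 ± 0.27) and Siglece (1.90 ± 0.37) rose, and Cd300lf by 0.34 ± 0.09, while Blnk (-0.45 ± 0.10) and Rasgrp3 (-1.67 ± 0.40) fell. Of the 14 activation-motif adaptors and other receptors that use Fcer1g 5 rose, among them Clec4e (2.39 ± 0.47), Clec4n (0.98 ± 0.21) and Gp6, the last with 0 counts in 3 of 4 untreated libraries and 0 to 26 with tau. Ets2 (0.90 ± 0.19) and Stat3 (0.35 ± 0.09) rose and Irf8 (-0.34 ± 0.08) fell, as did Fcrl1 (-1.18 ± 0.26), while Trim21 rose by 0.68 ± 0.18. None of these 16 genes kept its call through every omission of a single library. Leaving out untreated library 1 ended all 16 calls, leaving out tau library 6 ended 11 and tau library 4 ended 9. Each of the other libraries ended 2 to 6 calls, except untreated library 2, which ended none. Without the low-count filter Actr2, Cd300lf, Elmo2 and Stat3 lost their calls (adjusted p = 0.0548 to 0.264). Without a term for the title series no gene passed at all in this comparison. In SAN alone 10 of 16 passed and in the second series 3 of 15, with all in the same direction as in the pooled fit.

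The same lists were counted in the other comparisons, with no gene named. For tau against amyloid in APOE3 cells, where 7.33% of genes passed, the activation-motif adaptors and Fcer1g-using receptors had 6 higher and 0 lower with tau of 14, and the NADPH oxidase genes 3 higher and 0 lower of 6. The kinases and adaptors had 3 higher and 4 lower of 36, the inhibitory genes 1 and 1 of 23, the phagocytic genes 1 and 2 of 34, the transcription factors 2 and 2 of 15, and the other immunoglobulin receptors 1 and 0 of 4. In APOE3S/S cells (0.149% of genes) 1 transcription factor was higher and 1 other immunoglobulin receptor lower. The log2 change with tau in APOE3 cells was higher or lower in SAN than in the second series (5.62% of genes) for 6 and 2 kinases and adaptors, 4 and 2 phagocytic genes, 2 and 0 NADPH oxidase genes, 2 and 0 activation-motif adaptors and receptors, 1 and 1 inhibitory genes and 0 and 1 transcription factors. In APOE3S/S cells (0.949% of genes) 1 NADPH oxidase gene and 1 activation-motif adaptor or receptor were higher and 1 kinase or adaptor lower in that test. Between the series in untreated APOE3 cells (16.4% of genes), 2 kinases and adaptors were higher and 6 lower in SAN, with 3 and 4 inhibitory genes, 2 and 7 phagocytic genes, 3 and 3 activation-motif adaptors and receptors, 2 and 1 other immunoglobulin receptors and 1 and 1 transcription factors.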

How the data were processed

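The deposited values were read counts per gene from QuantSeq 3′ libraries of 28 samples, in 2 tables that share 5 identical libraries; the submitters' processing notes name DESeq2 1.38.3 and the builds GRCm38 and mm10, with the aligner, the counter and its strand setting not given in the sources used here. Of 60976 entries, 6360 held no number and 189 repeats of a symbol were left out. Genes passing filterByExpr were fitted with edgeR 4.0.16 (TMM, quasi-likelihood test, Benjamini-Hochberg adjustment over all genes tested, threshold 0.05) in R 4.3.3. Untreated and tau libraries were fitted together with a term for title series (22 libraries, 13905 genes), amyloid against untreated in 11 SAN libraries (13867 genes), and tau against amyloid in 17 SAN libraries (14131 genes). Libraries held 14.5 to 27.2 M counts, and each member at least 1098 in every library. Groups came from the labels. The fit was tested on simulated data. The alternatives tried were DESeq2 1.42.0, RLE scaling, the absence of a low-count filter, each title series alone, no series term, a replicate block and leaving out each library. Likeness is Pearson's r of log2 CPM (prior count 2) among genes with a mean of at least 5 CPM. Named pathway genes are the 3 called with the smallest p in each list, or all where fewer were called, for the 2 tau comparisons; 1 gene so chosen is not reported here. The members and lists were chosen with earlier results of these data known.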

Additional observations from a re-analysis of the deposited data

How the results depend on the processing

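Over 310 values of members under alternatives other than leaving out a library, 275 kept their direction and their side of the threshold, 21 were newly called, 1 lost its call and 13 changed sign; the causes were not tested. Of the 21 newly called, 15 came without the low-count filter, 4 with DESeq2 and 2 in SAN alone. Calls over all genes also rose without the filter in the comparisons listed in the last paragraph. The member counts below are to be read beside those totals. The number of genes tested without the filter is not given here, so no share is set beside them. The count of members called in a comparison moved as follows. Without the low-count filter it was 2 with tau in APOE3 cells, 1 with tau in APOE3S/S cells, 1 between untreated genotypes, 1 with amyloid in either genotype, 2 between genotypes with amyloid, 2 for tau against amyloid in APOE3 and 1 in APOE3S/S cells, and 3 and 1 for the tau response by title series in APOE3 and APOE3S/S cells. With DESeq2 it was 1 with amyloid in APOE3 cells, 1 for tau against amyloid and 1 for the response by title series, all in APOE3 cells. Between the title series in untreated APOE3 cells, Fcgr1 was newly called under both of these settings, as given above. For that comparison the calls over all genes under these settings are not given here. With tau in APOE3 cells it was 3 in SAN alone and 0 in the second series alone. Leaving out 1 library gave 0 to 1 member for amyloid in APOE3S/S cells and for the response by title series in each genotype.

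These values changed sign. With tau in APOE3 cells, SAN alone gave -0.0027 for Fcgr2b and -0.1301 for Fcgr4, and the second series alone 0.0962 for Fcgr3. With tau in APOE3S/S cells, Fcgr4 was -0.1227 in SAN and Fcer1g -0.2976 in the second series. Between untreated genotypes Fcgr3 was 0.2914 in the second series, 0.0799 with no series term and 0.0229 with the replicate block. Between genotypes with tau, SAN alone gave -0.0081 for Fcgr2b and 0.0057 for Fcer1g. For tau by genotype Fcgr3 was -0.2442 in the second series and -0.0185 with no series term, and Fcgr4 was 0.0074 in SAN. With no subtraction the correlation of Fcgr2b with Sh3bgrl2 was -0.212 and that of Fcgr3 with Hist1h1c -0.343.

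Leaving out 1 library moved these members through 0. With tau in APOE3S/S cells Fcgr4 ran from -0.1208 to 0.1955 and Fcer1g from -0.0913 to 0.2464. Between genotypes, Fcgr3 untreated ran from -0.1075 to 0.0995, Fcgr2b with tau from -0.0285 to 0.0341, Fcer1g with tau from -0.0669 to 0.0364, Fcgr2b with amyloid from -0.0702 to 0.04 and Fcgr3 with amyloid from -0.2352 to 0.1574. With amyloid in APOE3 cells Fcgr2b ran from -0.1422 to 0.0209 and Fcgr4 from -0.3307 to 0.0936, and in APOE3S/S cells Fcgr2b from -0.2054 to 0.1056 and Fcgr3 from -0.3879 to 0.1327. For tau by genotype Fcgr3 ran from -0.0282 to 0.1793, and for amyloid by genotype Fcgr1 from -0.7326 to 0.6776, Fcgr2b from -0.129 to 0.1823, Fcgr3 from -0.0172 to 0.5036 and Fcer1g from -0.011 to 0.4225. Fcgr3 for tau against amyloid in APOE3S/S cells ran from -0.2443 to 0.1496. For the response by title series in APOE3S/S cells Fcgr1 ran from -0.3717 to 1.1029, Fcgr3 from -0.3115 to 0.22 and Fcgr4 from -0.9262 to 0.0577, and Fcer1g between series in untreated APOE3 cells from -0.0556 to 0.231.

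Over all genes, calls with tau in APOE3 cells numbered 2064, against 372 in the second series alone and 846 with no series term. With tau in APOE3S/S cells they numbered 456, against 1441 without the filter, 950 by DESeq2 and 0 with no series term. Without the filter and by DESeq2, the counts were 343 and 5 between untreated genotypes (1 with edgeR and the filter), 1008 and 289 with amyloid in APOE3, 665 and 2 in APOE3S/S, 739 and 59 between genotypes with amyloid, 1892 and 1596 for tau against amyloid in APOE3 (1036), 487 and 159 in APOE3S/S (21), 1399 and 1180 for the response by title series in APOE3 (781) and 769 and 440 in APOE3S/S (132). Without the filter they were also 42 between genotypes with tau (2), 149 for tau by genotype and 75 for amyloid by genotype. Whether replicate numbers pair the samples could not be decided. Of 13 same-numbered pairs, 4 had a correlation over 0.1 (-0.194 to 0.389). These correlations are of deviations from means of only 2 or 3 libraries. With 2 libraries the deviations mirror each other, so opposite signs are fixed in advance. The replicate block was run for the genotype and by-genotype comparisons only. In these no member was called with it, and Fcgr1 between untreated genotypes was 0.5418 (adjusted p = 0.427, against 0.642 without the block).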
